A study of Nicotiana tabacum with 78 samples.

Results

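The organ bias of gene expression in untopped plants of 3 PMT-RNAi tobacco lines was measured as the log2 ratio of root to leaf expression, gene by gene and line by line. In every line most of the genes in the deposited expression table were higher in roots, the genes of nicotine and anatabine synthesis among them, whereas a small set of photosynthesis genes was higher in leaves. The table lists 2075 genes with 1 mean expression value per organ, line and treatment, given as RPKM (reads scaled to the length of the gene and to the mapped reads of the library). A gene was scored in a line where its mean reached 1 RPKM in the root or in the leaf, and its ratio was computed as log2 of root RPKM + 0.1 over leaf RPKM + 0.1. Of the 2075 genes, 2024 were scored in at least 1 line and 1744 in all 3 lines, while 122 were scored in a single line, 158 in 2 lines and 51 in none. Nearest to the minimum, NITAB016770 reached 1.00 RPKM in its highest group and was scored, and NITAB004676 reached 0.997 RPKM and was not. The 2075 genes were selected by the authors in root comparisons between lines, TN90 and topping treatments, so that the shares of root-biased and leaf-biased genes describe this table and not the tobacco genome.

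PMT1, PMT2 and PMT3 are transgenic lines of TN90, a Burley cultivar of Nicotiana tabacum, in which putrescine N-methyltransferase (PMT) genes are suppressed by RNA interference from a construct driven by the constitutive 35S promoter. Plants were grown in a greenhouse. Untopped plants kept their flower heads, while topped plants were sampled 24 h after removal of the head. Total RNA of leaves and roots was sequenced, and the labels give 5 untopped leaf and 5 untopped root samples of PMT1, 4 and 5 of PMT2, and 5 and 4 of PMT3, which makes 28 of the 78 samples of the series. For 9 of these 28 samples the tissue tag contradicts the title, in 2 of PMT2 and 7 of PMT3, and the titles were followed. Opposite treatment labels on leaf and root occurred in 6 plants (4 PMT2, 2 PMT3). Since the expression table holds only group means, no ratio has a standard deviation or a p-value, and results with and without single samples could not be computed.

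Nicotine is assembled in tobacco roots from a pyrrolidine ring, made from ornithine through putrescine and N-methylputrescine, and a pyridine ring, made from aspartate. PMT commits putrescine to the pyrrolidine ring, and N-methylputrescine oxidase (MPO) carries out the next step. The related alkaloid anatabine draws on the pyridine branch. The alkaloids then travel through the xylem to the leaves, where they are stored, so that the organ of synthesis and the organ of storage differ.

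The MPO genes show how closely related the copies behind such values can be. Below are the first 120 bases of the MPO-S coding sequence (NITAB041830, bases 1 to 120) and the aligned stretch of the longer MPO-T sequence (NITAB056529, bases 244 to 363), as given in the sequence supplement of the study, with the 4 bases at which the copies differ in capitals.
MPO-S: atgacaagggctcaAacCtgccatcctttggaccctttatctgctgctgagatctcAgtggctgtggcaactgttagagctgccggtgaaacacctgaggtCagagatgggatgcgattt
MPO-T: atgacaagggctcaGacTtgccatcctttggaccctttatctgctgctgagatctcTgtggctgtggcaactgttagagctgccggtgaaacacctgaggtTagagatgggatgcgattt
Over the 2115 bases from the first MPO-S base to its first stop codon in frame, 41 bases differed, an identity of 98.1%, and the longest stretch without a difference was 299 bases. Reads of 150 bases that were allowed up to 10 hits can therefore fit both copies, and the expression values of MPO-S and MPO-T, like those of the other close gene copies below, are uncertain as to how reads were divided between them.

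The targets of the construct were compared between the lines and TN90. The authors called these genes in roots of these same samples, so lower root levels in the lines are not an independent check of the labels. In roots the 5 PMT genes had a summed level of 69.4 RPKM in PMT1, 36.8 RPKM in PMT2 and 28.5 RPKM in PMT3, against 90.7 RPKM in untopped TN90 roots. In leaves the sums were 2.28, 8.89 and 5.73 RPKM, against 0.644 RPKM in TN90. By these sums the lines were below TN90 in roots and above it in leaves, which did not hold for every single gene. A single gene made up most of this leaf signal. NITAB068133, annotated as PMT 3, had 2.05, 8.10 and 5.56 RPKM in leaves of PMT1, PMT2 and PMT3 and 0.227 RPKM in TN90 leaves, and it held 89.8%, 91.1% and 97.0% of the summed PMT level in leaves of the lines, against 35.2% in TN90. In roots it had 16.3, 8.10 and 9.44 RPKM, against 29.0 RPKM in TN90, and held 23.5%, 22% and 33.1% of the sum, against 31.9% in TN90. Its ratios were therefore 2.93, 0.00 and 0.75, against 6.47 in TN90, and it was the only PMT gene without a root bias, taken here as a 2-fold or larger ratio, in all 3 lines. In PMT2 its leaf and root means were equal to 2 significant digits.

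The other PMT genes kept low leaf levels. NITAB020971, the most highly expressed in roots, had 0.111, 0.419 and 0.114 RPKM in leaves and 27.9, 17.8 and 10.9 RPKM in roots, with ratios of 7.05, 5.11 and 5.68. NITAB068134 had 0.0662, 0.142 and 0.0180 and 13.1, 4.37 and 4.14 RPKM, with ratios of 6.31, 4.21 and 5.17. NITAB068130 and NITAB020972 had highest leaf means of 0.081 and 0.15 RPKM and root means of 7.35, 4.16 and 2.41 and 4.82, 2.43 and 1.68 RPKM. TN90 roots had 36.5 RPKM of NITAB020971, 13.9 of NITAB068134, 5.89 of NITAB068130 and 5.54 of NITAB020972. NITAB068130 was thus higher in PMT1 roots than in TN90 roots, and NITAB068134 was only slightly lower there. Among the 3 lines, PMT1 had the highest root level and the highest ratio in all 5 PMT genes.

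**Figure D1:**
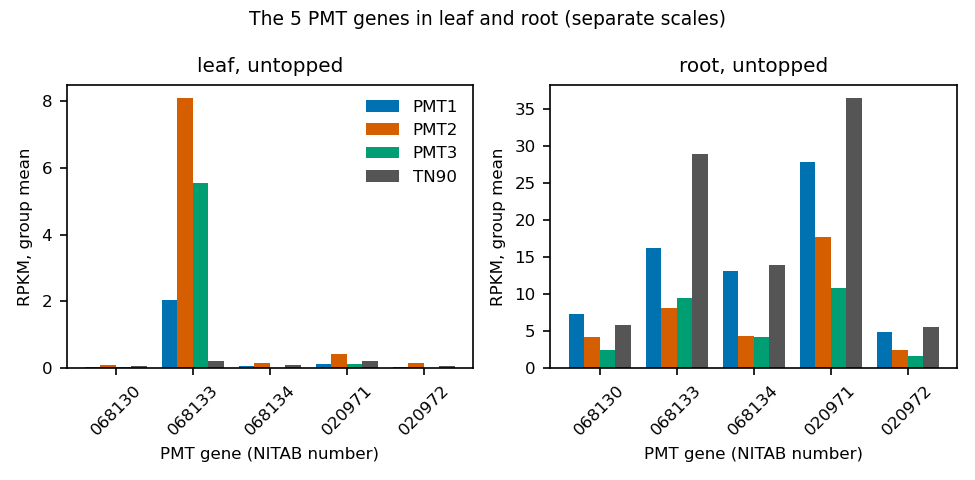
RPKM (group means, no error available) of the 5 PMT genes in untopped leaf (left) and root (right) of PMT1, PMT2, PMT3 and TN90, drawn on separate y axes. In leaves only NITAB068133 stands above 1 RPKM, in the 3 lines and not in TN90, whereas in roots all 5 genes are expressed in every line.

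PMT1 had 1521 root-biased genes among 1901 scored (80%). PMT2 had 1646 among 1958 (84.1%) and PMT3 had 1334 among 1811 (73.7%). Leaf bias of 2-fold or more was found for 88 genes in PMT1 (4.63%), 76 in PMT2 (3.88%) and 95 in PMT3 (5.25%). The median gene was 8.60-fold higher in the root in PMT1, 8.95-fold in PMT2 and 5.14-fold in PMT3, or 3.10, 3.16 and 2.36 on the log2 scale. These splits are relative to mapped reads. When every line's ratios were instead centred on that line's median, 594 genes lay on the root side and 688 on the leaf side in PMT1, 625 and 681 in PMT2, and 675 and 570 in PMT3. The centring moves the reference by the medians just given, and lists whose median changed sign with it are named as such in what follows.

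**Figure D2:**
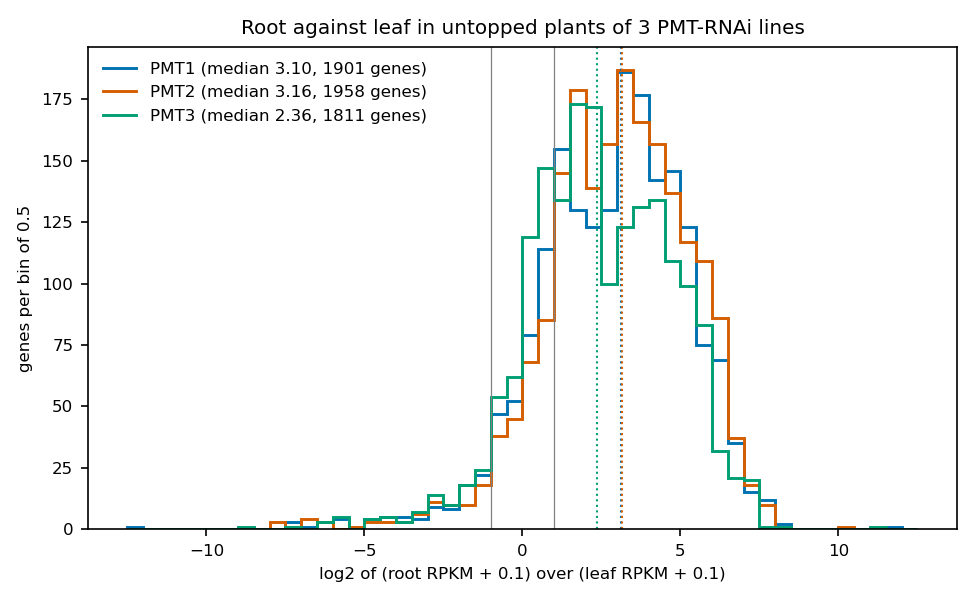
Number of genes (y axis, per bin of 0.5) by the log2 ratio of root to leaf RPKM with 0.1 added to each (x axis) in untopped PMT1, PMT2 and PMT3, with grey lines at a 2-fold difference and dotted lines at each line's median. All 3 distributions lie mostly on the root side, with medians of 3.10, 3.16 and 2.36, whereas with ratios centred on each line's median the 2 sides hold similar numbers of genes.

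Bias in the same direction in all 3 lines was found for 1240 root-biased genes (71.1% of the 1744 genes scored in all lines) and 58 leaf-biased genes (3.33%). A further 142 genes stayed within 2-fold in each line. A 10-fold or larger root bias was found for 875 genes in PMT1 (46%), 917 in PMT2 (46.8%) and 687 in PMT3 (37.9%), and a 10-fold or larger leaf bias for 30 (1.58%), 24 (1.23%) and 23 genes (1.27%). At 10-fold or more in each line there were 590 root-biased genes (33.8%) and 18 leaf-biased genes (1.03%). Nearest to the 2-fold limit, the lowest ratio of NITAB005705 was 1.01 and it counted as root-biased, and that of NITAB010940 was 0.999 and it did not. Under centring, 468 of the 1240 genes stayed root-biased and 26 became leaf-biased, while all 58 leaf-biased genes stayed so among 451 on that side. The leaf values of the root-biased genes were low: 815 of the 1240 had a leaf mean under 1 RPKM in all 3 lines, and 255 under 0.1 RPKM, where the added 0.1 RPKM limits the ratio. In the 590 genes with a 10-fold bias the leaf level was, at the median, 0.771% of the root level in PMT1, 1.13% in PMT2 and 1.07% in PMT3. The 18 strongly leaf-biased genes were more highly expressed, with median leaf means of 326, 394 and 246 RPKM, and their root level was 1.72%, 1.20% and 1.84% of the leaf level. In bulk organs, fewer cells of a type and less RNA per cell cannot be told apart.

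Among the named genes with the strongest shared root bias, all with at least 5 RPKM in the root of every line, was NITAB086276, annotated as an alpha/beta-hydrolase. It had 0.155, 0.328 and 0.148 RPKM in leaves of PMT1, PMT2 and PMT3 and 79.1, 148 and 36.9 RPKM in roots, with ratios of 8.28, 8.44 and 7.22. The non-specific lipid-transfer protein 2 gene NITAB053893, from a family of small secreted lipid carriers, had 0.617, 1.20 and 0.386 RPKM in leaves and 198, 189 and 165 RPKM in roots. Its root level was nearly the same in the 3 lines. The group also held sucrose synthase genes, whose enzyme cleaves sucrose delivered to sink organs. NITAB006331 had 0.407, 0.943 and 0.394 RPKM in leaves against 106, 172 and 86.5 RPKM in roots, and NITAB040763 had 0.411, 0.947 and 0.497 against 107, 161 and 95.3 RPKM. The glutathione S-transferase gene parC (NITAB083198), first described in tobacco as an auxin-regulated gene, had ratios of 7.95, 7.54 and 6.84. The seed maturation protein LEA 4 gene NITAB071328 had 0.783, 1.10 and 0.886 RPKM in leaves and 169, 87.5 and 196 RPKM in roots, with its lowest root mean in PMT2. These genes were picked for the largest ratios, so a lowest root mean far above the highest leaf mean follows from the selection.

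Of the 35 alkaloid candidate genes that the study named, 30 were scored in all 3 lines. Of these 30, 27 were root-biased in every line, 21 of them at 10-fold or more, and none was leaf-biased in every line, beside 71.1% root-biased and 3.33% leaf-biased over all scored genes. Their median ratio was 5.23 against 2.88 for all scored genes, and under centring 18 stayed root-biased and 1 was leaf-biased. The study chose these candidates in the roots of these samples, so their root bias is not independent evidence. The 5 candidates not scored everywhere are cytochrome P450 genes with low values, under 1 RPKM in both organs of PMT3 and, for NITAB006704, also of PMT1. Their root means were above their leaf means in every line. NITAB053665 had 0.0144, 0.0213 and 0.0396 RPKM in leaves and 1.36, 3.76 and 0.574 RPKM in roots.

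In the pyrrolidine branch, ornithine decarboxylase (ODC) makes putrescine from ornithine. NITAB012942 had 0.0963, 0.146 and 0.0858 RPKM in leaves of PMT1, PMT2 and PMT3 and 15.8, 21.6 and 10.5 RPKM in roots, with ratios of 6.34, 6.46 and 5.84. NITAB023946 had 0.110, 0.216 and 0.245 RPKM in leaves and 21.2, 42.1 and 12.2 RPKM in roots, with ratios of 6.66, 7.06 and 5.16. For both ODC genes no leaf mean was above 0.245 RPKM. The MPO genes had the same pattern. MPO-S had 0.0656, 0.173 and 0.0421 RPKM in leaves and 13.9, 30.5 and 6.78 RPKM in roots, MPO-T had 0.129, 0.166 and 0.0721 and 10.9, 20.8 and 6.14 RPKM, and the third amine oxidase gene, NITAB056530, had 0.0594, 0.203 and 0.0455 and 13.5, 24.6 and 7.12 RPKM. In each of the 3 genes PMT2 roots were highest and PMT3 roots lowest, and all leaf means were below all root means.

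Spermidine synthase, which draws putrescine away to the polyamines, had a weaker root bias. NITAB055952 had 3.99, 1.05 and 1.17 RPKM in leaves and 31.4, 21.6 and 18.9 RPKM in roots, and NITAB041017 had 2.62, 1.03 and 0.920 and 18.1, 14.2 and 10.6 RPKM. In these genes PMT1 had the highest level in both organs. NITAB026467 had 1.77, 0.810 and 0.361 RPKM in leaves and 3.58, 2.50 and 2.03 RPKM in roots, with ratios of 0.98, 1.51 and 2.21, which were under 2-fold in PMT1 alone.

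In the pyridine branch, aspartate oxidase and quinolinate synthase make quinolinate, and quinolinate phosphoribosyltransferase (QPT) passes it on towards nicotinic acid. The aspartate oxidase genes had the largest ratios of the branch. NITAB079852 had 0.310, 0.601 and 0.170 RPKM in leaves and 49.0, 113 and 20.02 RPKM in roots, and NITAB045325 had 0.242, 0.600 and 0.160 and 44.4, 99.9 and 19.5 RPKM. Both are listed in the file under a succinate dehydrogenase flavoprotein name, and the study assigns them to aspartate oxidase. The quinolinate synthase genes NITAB063722 and NITAB074182 had root means of 64.1, 126 and 34.0 and 54.3, 107 and 27.8 RPKM and leaf means of 1.13, 1.65 and 0.925 and 1.19, 1.85 and 1.09 RPKM. QPT (NITAB041007) kept a higher leaf level, of 7.05, 8.69 and 6.56 RPKM, against 89.6, 184 and 40.8 RPKM in roots, so that its ratios of 3.65, 4.39 and 2.62 were lower than those of the enzymes before it. The asparaginase genes, whose enzyme supplies aspartate, were the least biased: NITAB013732 had ratios of 2.43, 2.44 and 1.87, and NITAB023723 had 1.56, 1.69 and 1.36 RPKM in leaves and 2.47, 4.78 and 1.02 RPKM in roots, root-biased in PMT2 alone. Both lay below the median ratio of every line.

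The last steps of nicotine synthesis need the reductase A622 and berberine bridge enzyme-like proteins (BBL), which the file names reticuline oxidase. The A622 genes NITAB026459 and NITAB013664 had 0.180, 0.394 and 0.146 and 0.158, 0.503 and 0.119 RPKM in leaves and 37.1, 85.0 and 15.5 and 27.9, 77.6 and 11.2 RPKM in roots, with a mean ratio of 6.82 and 6.49. The 4 BBL candidates had root means between 3.73 and 28.9 RPKM and leaf means between 0.0209 and 0.193 RPKM, and NITAB049634 was the highest, with 12.4, 28.9 and 5.82 RPKM in roots. S-adenosylmethionine synthase, which makes the methyl donor of PMT, was expressed in both organs: NITAB038231 had 9.12, 9.42 and 7.24 RPKM in leaves and 132, 211 and 93.3 RPKM in roots. The polyamine transporter gene PUT1 (NITAB002823) had 0.868, 0.836 and 0.697 and 2.56, 4.22 and 1.76 RPKM, with ratios of 1.46, 2.21 and 1.22, which lie below the median ratio of every line.

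**Figure D3:**
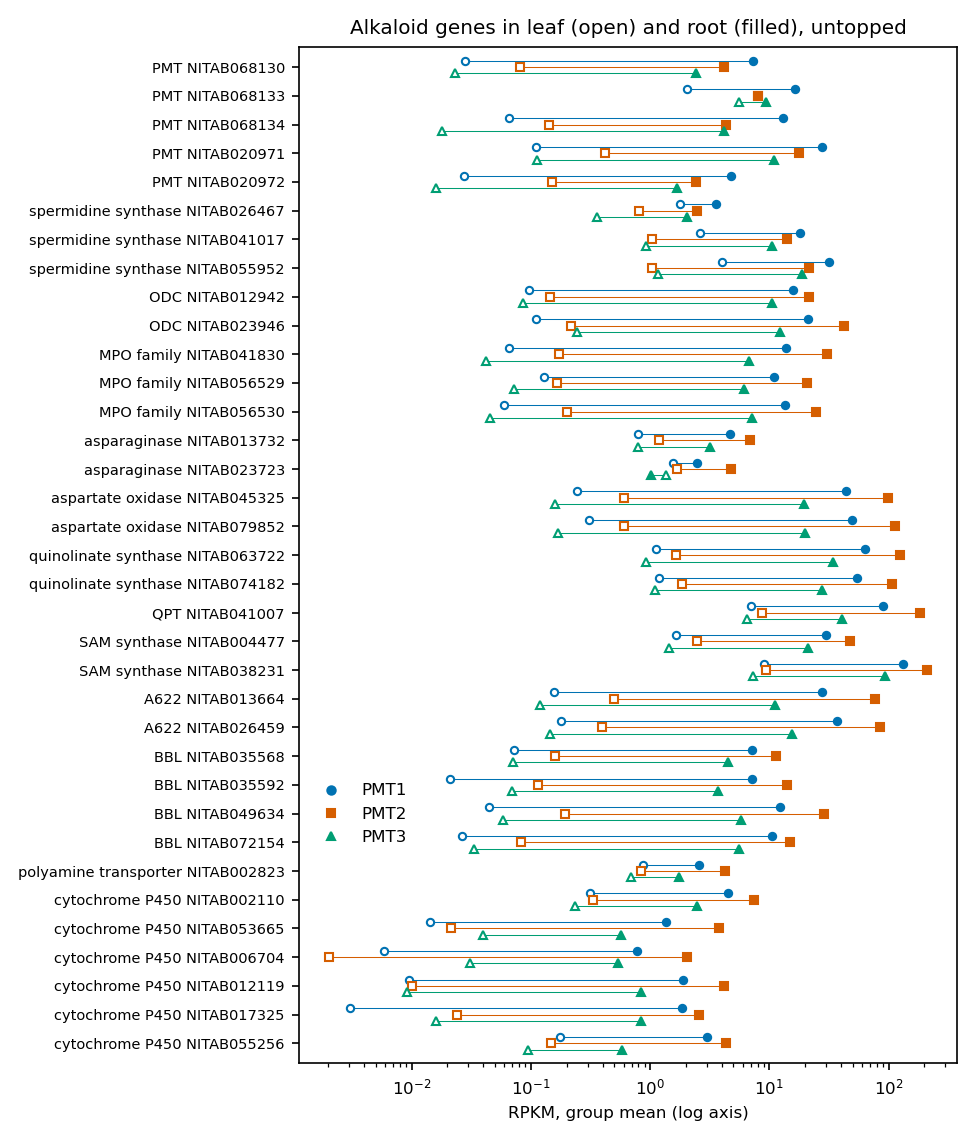
RPKM (group means, log x axis, no error available) of the 35 alkaloid candidate genes in leaf (open symbols) and root (filled symbols) of untopped PMT1, PMT2 and PMT3, joined by a line per gene and line. The symbols lie far apart for ODC, MPO, aspartate oxidase, A622 and BBL, and close together for NITAB068133 in PMT2 and PMT3 and for the asparaginase gene NITAB023723.

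Of 29 scored genes of other transport 16 were root-biased (55.2%, beside 71.1% over all scored genes) and 1 leaf-biased, and their median ratio of 2.12 became −0.75 under centring. The DETOXIFICATION 38 genes, which belong to the MATE transporter family, had 0.0773, 0.106 and 0.0633 RPKM in leaves and 18.4, 39.4 and 7.84 RPKM in roots for NITAB026456, and 0.0826, 0.185 and 0.0529 and 14.1, 35.1 and 4.91 RPKM for NITAB013665. In both genes the order in roots was PMT2, PMT1, PMT3. Another member annotated DETOXIFICATION, NITAB051257, chosen after its values were seen, had 97.8, 90.2 and 92.6 RPKM in leaves and 155, 275 and 123 RPKM in roots and was root-biased in PMT2 alone.

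Genes that build thickened cell walls were nearly all root-biased. Of 52 scored secondary wall genes, which include cellulose synthases, laccases and fasciclin-like proteins, 51 were root-biased and 49 at 10-fold or more, beside 71.1% and 33.8% over all scored genes, with a median ratio of 5.47 against 2.88 for all scored genes, and 48 stayed root-biased under centring. The cellulose synthase gene NITAB049088 had 0.0848, 0.205 and 0.113 RPKM in leaves and 29.9, 33.0 and 30.5 RPKM in roots, and NITAB030595 had 0.137, 0.230 and 0.126 and 30.8, 37.3 and 33.7 RPKM. The fasciclin-like arabinogalactan gene NITAB038451 had 0.0530, 0.0652 and 0.0526 RPKM in leaves and 18.4, 19.02 and 20.4 RPKM in roots. Root levels of these genes hardly differed between lines. Of 27 extensins and arabinogalactan proteins, structural proteins of the wall, 26 were root-biased (median 4.87), as were 16 of 18 peroxidases (median 4.73), with 1 peroxidase leaf-biased. Peroxidase 64 (NITAB060928), which in Arabidopsis takes part in lignification of the Casparian strip, had 0.0842, 0.216 and 0.0476 RPKM in leaves and 24.04, 29.9 and 25.8 RPKM in roots. Peroxidase 49 (NITAB058850) had 13.9, 34.7 and 7.86 RPKM in roots, highest in PMT2 and lowest in PMT3.

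Cell wall loosening genes, among them expansins and endoglucanases, allow cells to enlarge. Of 55 scored, 48 were root-biased (87.3%) and none leaf-biased (median 4.06), beside 71.1% and 3.33% over all scored genes. The expansin A3 gene NITAB027239 had 0.108, 0.319 and 0.0775 RPKM in leaves and 12.6, 28.6 and 8.02 RPKM in roots. In this list the order of the lines in roots was PMT2 above PMT1 above PMT3 in 50 of 55 genes, beside 954 of 1744 (54.7%) over all scored genes. Of 36 genes for lipid transfer, wax and suberin, 30 were root-biased (83.3%) and 1 leaf-biased (median 4.07).

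Water channels were root-biased in 13 of 15 scored aquaporin genes and leaf-biased in none (median 4.21), beside 71.1% and 3.33% over all scored genes. The tonoplast aquaporin genes annotated RB7-5A, named after a tobacco gene known for root expression, were led by NITAB073244 with 0.276, 0.825 and 0.395 RPKM in leaves and 30.5, 41.4 and 27.3 RPKM in roots. The plasma membrane aquaporin gene NITAB069591 had 0.152, 0.321 and 0.172 RPKM in leaves and 22.3, 38.8 and 15.9 RPKM in roots. The 2 exceptions were root-biased in PMT1 and PMT2 only, and both were chosen after their values were seen: NITAB057433 (TIP1-1) had 2.13, 2.05 and 4.79 RPKM in leaves and 5.13, 7.51 and 2.63 RPKM in roots, and NITAB058321 (PIP2-4) had 19.9, 21.9 and 22.8 and 46.7, 82.2 and 29.4 RPKM. In both, the PMT3 root mean was the lowest of the 3 lines.

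Among defence genes, the pathogenesis-related and protease inhibitor lists had root-biased shares near the 71.1% of the whole table, and the few polyphenol oxidases a higher one. Of 37 pathogenesis-related and defensin genes 29 were root-biased (78.4%) and 1 leaf-biased (median 3.76), and of 18 protease inhibitors 13 were root-biased (72.2%) and 3 leaf-biased (median 3.60). Of 6 polyphenol oxidases all were root-biased (median 4.42). The defensin-like gene NITAB031973 had 0.0510, 0.117 and 0.0819 RPKM in leaves and 15.2, 40.5 and 8.02 RPKM in roots. Protease inhibitors lay on both sides. The Kunitz trypsin inhibitor gene NITAB050197 had 0.0571, 0.133 and 0.0625 RPKM in leaves and 19.3, 31.9 and 12.1 RPKM in roots, whereas NITAB034145, listed under the same Kunitz trypsin inhibitor 2 name, had 71.3, 67.3 and 38.9 RPKM in leaves and 1.14, 2.32 and 1.41 RPKM in roots.

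Of 12 scored photosynthesis genes 9 were leaf-biased and 1 root-biased, beside 3.33% and 71.1% over all scored genes, with a median ratio of −5.27. They were 9 of the 58 genes with a shared leaf bias, and 8 of the 18 at 10-fold or more. The small subunit of Rubisco, the enzyme of carbon fixation, is encoded in the nucleus, and its gene NITAB060684 had 721, 819 and 554 RPKM in leaves and 3.97, 3.29 and 4.13 RPKM in roots, while NITAB046259 had 591, 817 and 312 and 4.07, 3.90 and 5.05 RPKM. The antenna protein gene CP29.2 (NITAB039355) had 389, 449 and 290.4 RPKM in leaves and 5.40, 5.30 and 5.49 RPKM in roots. The gene of the oxygen-evolving enhancer protein 3 (NITAB059650) had 342, 404 and 253 and 3.44, 3.53 and 3.69 RPKM. In 11 of the 12 photosynthesis genes the leaf level was highest in PMT2 and lowest in PMT3, beside 513 of 1744 over all scored genes. Root levels were between 3.29 and 5.49 RPKM for these named genes and differed less between lines.

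Genes of the same name could lie on opposite sides. NITAB097766, annotated as Rubisco small chain 5, had 0.122, 0.1001 and 0.00351 RPKM in leaves and 17.2, 40.2 and 9.34 RPKM in roots, and 0.0273 and 14.1 RPKM in TN90. The second gene annotated as small chain S41, NITAB060686, had 4.71, 6.72 and 1.72 RPKM in leaves and 5.27, 5.74 and 6.57 RPKM in roots, without shared bias. Of the 4 genes annotated as the 10 kDa polypeptide of photosystem II, NITAB031702 had 858, 949.6 and 854 RPKM in leaves and 11.2, 9.02 and 11.1 RPKM in roots, whereas NITAB080735 had 53.2, 56.2 and 48.4 and 43.8, 36.9 and 34.8 RPKM and stayed within 2-fold in each line.

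Outside photosynthesis and the plastid genome, the named genes with the strongest shared leaf bias were the chloroplast aldolase gene NITAB014345, of the Calvin cycle, with 496, 583 and 319 RPKM in leaves and 19.005, 17.6 and 16.8 RPKM in roots, the Kunitz inhibitor above, and a late embryogenesis abundant gene, D-7 (NITAB050339), with 88.1, 56.7 and 78.0 RPKM in leaves and 2.21, 0.496 and 1.16 RPKM in roots. The gene with the lowest mean ratio of all carries no name and was chosen after its values were seen: NITAB036366 had 633, 733 and 721 RPKM in leaves and 0.0368, 9.71 and 1.57 RPKM in roots. Its root level differed more between the lines than its leaf level.

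Gene models named after plastid-encoded proteins mostly did not share the leaf bias of the nuclear photosynthesis genes. Their root-biased share was near that of the whole table. Of 22 scored, 15 were root-biased (68.2%) and 2 leaf-biased (9.09%), beside 71.1% and 3.33% over all scored genes. Their median ratio of 2.40 became −0.47 under centring. NITAB019532, annotated as the beta'' subunit of plastid RNA polymerase, had 1036, 1227 and 574 RPKM in leaves and 7.22, 6.27 and 7.08 RPKM in roots. Its namesake NITAB098704 had 0.0133, 0.0297 and 0.0206 RPKM in leaves and 13.0, 6.80 and 10.7 RPKM in roots. NITAB010977, annotated as photosystem II protein D1, and NITAB094976, annotated as a photosystem I P700 apoprotein, are listed at 0, 0.0194 and 0.0393 and 0.0193, 0.0282 and 0.00357 RPKM in leaves and 2.98, 1.83 and 3.78 and 3.499, 8.30 and 1.47 RPKM in roots. Whether reads from plastid RNA or from nuclear copies of plastid sequence gave these values was not tested.

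A group of lists lay near or on the leaf side of the table's median. Heat shock and chaperone genes protect proteins under stress. Of 35 scored, 11 were root-biased (31.4%) and 3 leaf-biased (8.57%), beside 71.1% and 3.33% over all scored genes. Another 10 stayed within 2-fold in each line, and the median of 0.18 was the lowest of the lists after photosynthesis. Under centring this median became −2.70, and 21 were leaf-biased and none root-biased. The 3 leaf-biased genes encode small heat shock proteins and were named after their values were seen. NITAB091110 (17.9 kDa class II) had 132, 77.7 and 102 RPKM in leaves and 22.9, 19.3 and 33.9 RPKM in roots, NITAB038846 (18.5 kDa class I) had 36.6, 38.6 and 36.1 and 6.83, 8.83 and 5.22 RPKM, and NITAB065618 (18.2 kDa class I) had 34.9, 21.1 and 20.2 and 5.00, 4.66 and 8.72 RPKM. NITAB004897, also an 18.2 kDa class I gene, had 2.29, 0.572 and 1.08 RPKM in leaves and 9.72, 8.25 and 14.3 RPKM in roots, in the opposite direction. In leaves PMT1 was the highest line in 24 of the 35 genes, against 333 of 1744 over all scored genes.

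Dehydrins and other late embryogenesis abundant proteins are made in seeds and under water deficit. Of 23 scored, 13 were root-biased (56.5%) and 1 leaf-biased (4.35%), beside 71.1% and 3.33% over all scored genes. Their median of 2.04 became −0.83 under centring. The order of the lines was unlike that of most genes. Only 1 of the 23 followed PMT2 above PMT1 above PMT3 in roots, beside 954 of 1744 over all scored genes. The median difference between PMT2 and PMT3 roots was −1.24 on the log2 scale, against 0.64 over all scored genes. Dehydrin DHN1 (NITAB060787), chosen after its values were seen, had 25.4, 18.0 and 40.0 RPKM in leaves and 83.0, 41.4 and 148 RPKM in roots, with PMT3 highest and PMT2 lowest in both organs. The Rab15 dehydrin gene NITAB030410, also so chosen, had 12.4, 9.17 and 30.6 and 25.9, 8.08 and 24.8 RPKM and was root-biased in PMT1 alone.

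Histones package DNA and are made as cells replicate it. Of 46 histone genes 34 were root-biased (73.9%) and none leaf-biased, beside 71.1% and 3.33% over all scored genes. Their median was 3.16 against 2.88 for all scored genes, whereas under centring 13 were root-biased and 7 leaf-biased. The histone H3.2 gene NITAB004045 had 0.302, 0.747 and 0.188 RPKM in leaves and 13.9, 29.0 and 8.18 RPKM in roots. In roots 45 of the 46 followed the order PMT2, PMT1, PMT3, beside 954 of 1744 (54.7%) over all scored genes. The median difference between PMT2 and PMT3 was 1.76 on the log2 scale, against 0.64 over all scored genes. The exception, NITAB081670, had 1.56, 1.12 and 1.86 RPKM. Root bias in all lines but PMT3 was found for 8 of the 46, beside 114 of 1744 over all scored genes. Tubulins and other cell division genes were root-biased in 19 of 20 (95%, median 3.31), and 17 of the 20 followed the same order in roots.

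Among regulators the root-biased shares were close to, or somewhat below, the 71.1% of the whole table. Of 60 transcription factors 41 were root-biased (68.3%) and 1 leaf-biased, with a median of 2.55 that became −0.32 under centring. PMT1 roots were highest in 30 of the 60, beside 350 of 1744 over all scored genes. The MYB gene NITAB064777 had 0.0255, 0.0174 and 0.0304 RPKM in leaves and 6.15, 4.89 and 5.86 RPKM in roots. Of 21 ethylene genes 13 were root-biased (61.9%) and 2 leaf-biased (median 2.61, or −0.26 under centring). Another 5 were root-biased in all lines but PMT3, beside 114 of 1744 over all scored genes. The EIN3-binding F-box genes, which restrain the ethylene response and were named after their values were seen, had higher leaf levels in PMT3: NITAB085075 had 3.54, 5.24 and 12.8 RPKM in leaves and 31.6, 22.9 and 26.4 RPKM in roots, and NITAB032021 had 1.10, 1.83 and 5.63 and 9.39, 6.84 and 7.78 RPKM. In TN90 leaves the same genes had 8.88 and 3.92 RPKM. Of 15 jasmonate genes 10 were root-biased (66.7%, median 2.06, or −0.82 under centring). Jasmonate is the hormone that induces nicotine synthesis in roots.

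The other lists can be given briefly, to be read beside the 71.1% root-biased over all scored genes. Root bias was shared by 21 of 33 protein kinases (median 2.67), 17 of 24 genes of other hormones (2.86), 15 of 23 phenylpropanoid genes (2.51), 19 of 34 other chloroplastic enzymes (2.02), 8 of 13 mineral and sugar transporters (1.77) and 7 of 14 cytochrome P450 genes (1.30), and under centring all 6 of these medians became negative. It was shared by 5 of 6 terpene and sterol genes (4.30) and 4 of 7 glycosyltransferases and glucosidases (4.49), whose medians stayed positive. Of the 420 scored genes without a name 298 were root-biased (71.0%) and 8 leaf-biased (median 2.72).

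**Figure D4:**
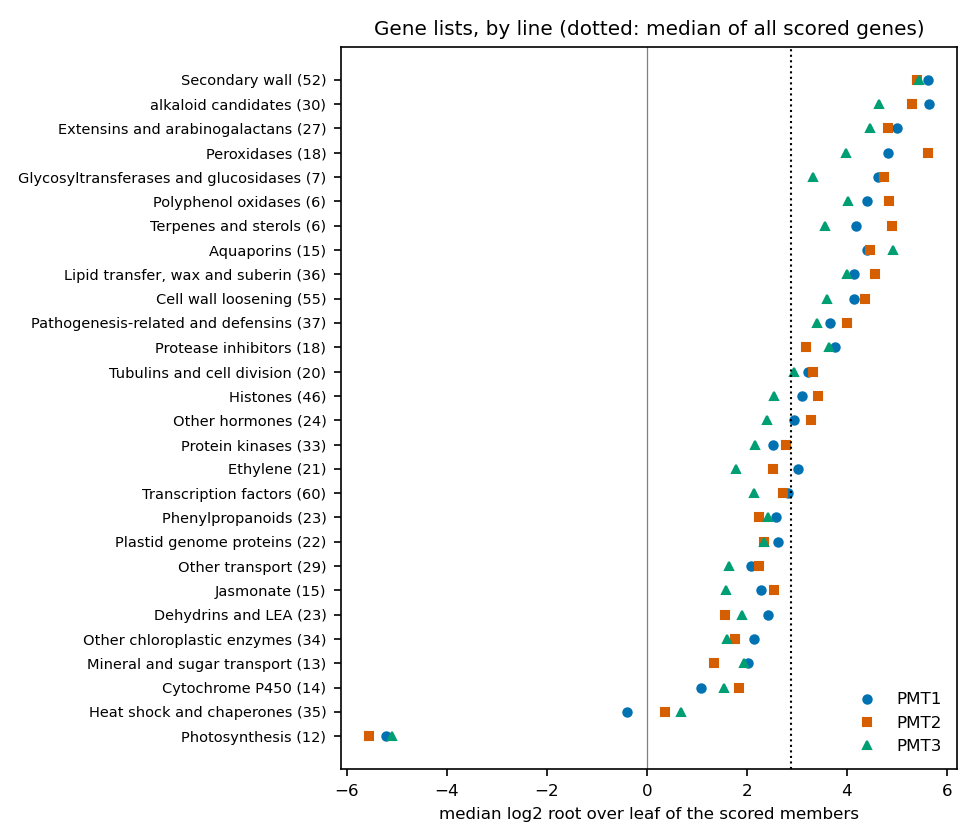
Median log2 ratio of root to leaf over the scored members of each gene list (number of members in parentheses) in untopped PMT1, PMT2 and PMT3, with the median of all scored genes dotted. Photosynthesis genes lie farthest to the leaf side in all 3 lines, secondary wall genes lie at 5.40 or above on the root side, and lists left of the dotted line take a negative median when ratios are centred on each line's median.

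The ratios of all lines lay within 1 log2 unit of each other in 870 of 1744 genes (49.9%) and within 2 units in 1599 (91.7%), with a median spread of 1.00. The line that differed most often was PMT3, which had the lowest ratio in 1057 genes (60.6%), against 403 for PMT2 and 284 for PMT1. Differences between lines were larger in roots than in leaves. The median absolute difference between PMT2 and PMT3 was 0.94 on the log2 scale in roots and 0.49 in leaves. It was 0.47 and 0.33 between PMT1 and PMT3, and 0.60 and 0.37 between PMT1 and PMT2. The genes were selected for differences between root groups, so larger differences in roots are built into this table. In roots the median gene was 0.64 higher on the log2 scale in PMT2 than in PMT3. Root bias in PMT1 and PMT2 but not in PMT3 was found for 114 of the 1744 genes. Their median ratio was 0.70 in PMT3 and 1.64 in the others. In topped PMT3 84 of them were root-biased, beside 1552 of 1950 over all genes scored there. Root bias in PMT2 alone was found for 71 genes (1.43 against 0.41). Their root level was at the median 1.07 higher on the log2 scale than in the other lines. In topped PMT2 43 of them were root-biased, beside 1641 of 1975 over all genes scored there. In untopped TN90 8 were root-biased, beside 1391 of 1845.

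Among the alkaloid candidates other than PMT, 22 of 25 followed the order PMT2, PMT1, PMT3 in roots, and PMT3 was lowest in all 25. Over all scored genes, 954 of 1744 followed this order and PMT3 roots were lowest in 1078. The 25 candidates had a median difference between PMT2 and PMT3 roots of 1.77 on the log2 scale. It was close to the 1.76 of the histones and above the 0.64 of all scored genes. None of the 5 PMT genes followed this order. The ratios are relative to mapped reads of each group, and 24 genes with 5000 RPKM or more in any group, 14 of them without a name, held between 63.1% and 74.6% of the summed RPKM of the table in each group, with the highest share in PMT3 roots.

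A departure was defined as a ratio that lay 2 or more log2 units above or below both other lines, which in turn lay within 1 unit of each other. It was found for 29 of 1744 genes (1.66%), of which 15 were in PMT2, 11 in PMT3 and 3 in PMT1. In PMT2, 6 genes departed towards the root (0.344%) and 9 towards the leaf (0.516%). In PMT3 there was 1 towards the root (0.0573%) and 10 towards the leaf (0.573%), and in PMT1 there were 2 (0.115%) and 1 (0.0573%). The root level departed in 19 and the leaf level in 10, among genes selected for differences between root groups. With no replicate values these are descriptions of group means, which a single sample can set. Of the genes that reached 5 RPKM in the departing line, 14 were in PMT2, 1 in PMT1 and none in PMT3.

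The PMT2 departures downwards were led by a set of genes without names. NITAB056274 had 254, 950.1 and 364 RPKM in leaves of PMT1, PMT2 and PMT3 and 5289, 1354 and 5732 RPKM in roots, NITAB087733 had 12.2, 21.9 and 16.6 and 909, 107 and 1015 RPKM, and NITAB057668 had 30.4, 67.6 and 44.0 and 1162, 258 and 2219 RPKM. In these genes the roots of PMT2 were far below those of PMT1 and PMT3, and nearer to the TN90 roots, which had 1215, 42.5 and 176 RPKM. NITAB084274 and NITAB000881 had the same order in roots, with 293, 209.6 and 823 and 63.7, 14.1 and 75.5 RPKM. NITAB056275 and NITAB053434, named after their values were seen, joined them with 3480.0, 651 and 3708 and 7.23, 1.77 and 19.9 RPKM in roots. These genes also differed by treatment, and in topped plants PMT2 had the highest ratio of the lines in each of them. The topped ratios in PMT1, PMT2 and PMT3 were 0.47, 2.57 and 1.90 in NITAB056274. They were 1.06, 3.93 and 2.19 in NITAB087733 and 0.35, 3.46 and 2.19 in NITAB057668. Topped roots of NITAB056274 had 3193, 1199 and 1096 RPKM, so PMT2 roots were not the lowest there. The leaf level of NITAB056274 in topped PMT1 was 2299 RPKM. NITAB071868 had the largest departure, with 0.168, 17.5 and 0.130 RPKM in leaves and 1064, 659 and 529 RPKM in roots, against 2.44 and 24.2 RPKM in TN90, so that its roots were high in all 3 lines and its leaves in PMT2 alone.

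The PMT2 departures upwards lay mostly in root levels. NITAB091106, without a name, had 0.0827, 0.0435 and 0.0581 RPKM in leaves and 2.88, 23.5 and 1.94 RPKM in roots. The cationic peroxidase 2 gene NITAB034751, the glucan endo-1,3-beta-glucosidase-like gene NITAB015919, NITAB022274 without a name and NITAB010442 were named after their values were seen and had 1.96, 11.6 and 1.64, 3.36, 9.33 and 1.52, 2.07, 13.7 and 3.72 and 1.89, 5.14 and 2.01 RPKM in roots. In topped plants NITAB091106 had 19.3 RPKM in PMT1 roots and 14.3 RPKM in PMT2 roots, so that these lines did not stand apart there. In PMT3, NITAB072873, a protein kinase gene named after its values were seen, had 0.0206, 0.0734 and 1.23 RPKM in leaves, and 1.22 RPKM in topped PMT3 leaves, so that its higher leaf level recurred in separate samples of that line. NITAB047735 (cytochrome P450 78A6), also so chosen, had 1.501, 1.495 and 4.29 RPKM in leaves and 2.62, 4.86 and 0.759 RPKM in roots.

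Opposite bias, to the root in 1 line and to the leaf in another, was found for 10 genes, of which 5 reached 5 RPKM in both lines. NITAB086778, annotated as the transcription factor ATNDX, had 26.3, 456 and 78.9 RPKM in leaves and 116, 76.9 and 196 RPKM in roots, with ratios of 2.14, −2.57 and 1.32. NITAB068620, a U-box gene of the kind that marks proteins for breakdown, had 6.48, 5.36 and 6.53 RPKM in leaves and 0.897, 23.6 and 2.14 RPKM in roots. The glutathione S-transferase gene parA (NITAB099216) had 19.9, 1.80 and 11.02 and 5.06, 8.06 and 4.83 RPKM, the receptor-like kinase gene NITAB067928 5.17, 3.99 and 6.57 and 5.67, 27.9 and 2.59 RPKM, and the jumonji gene NITAB043423 6.37, 8.80 and 6.44 and 2.78, 20.1 and 8.60 RPKM. In all 5 genes PMT2 was the line on its own side or a member of the pair that differed, and in 4 of them its root mean was the highest of the 3 lines.

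**Figure D5:**
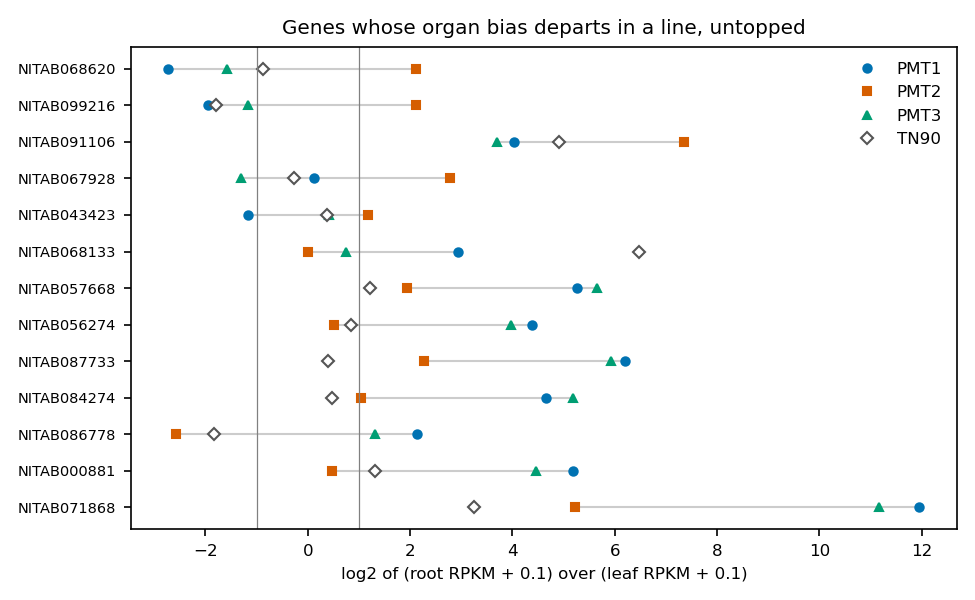
Log2 ratio of root to leaf (x axis, 0.1 RPKM added) in PMT1, PMT2, PMT3 and TN90, untopped, for genes named as departures of a line or as biased oppositely between lines (y axis), with grey lines at a 2-fold difference. PMT2 lies apart from PMT1 and PMT3 in most rows, to the right in the upper ones and to the left in the lower ones, and its distance is largest for NITAB071868.

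The organ bias was largely the same outside the 3 untopped lines. In untopped TN90, 1391 of 1845 scored genes were root-biased (75.4%) and 109 leaf-biased (5.91%). Of the 1240 genes with shared root bias 1182 were root-biased in TN90 (95.3% of the 1240 and 85.0% of the TN90 list), 36 were within 2-fold, 22 were not scored and none was leaf-biased. Of the 58 genes with shared leaf bias 57 were leaf-biased in TN90 (98.3% and 52.3%). In topped plants of the 3 lines, 1419 genes had a shared root bias (75.6%) and 56 a shared leaf bias (2.99%), which took in 1162 of the 1240 root-biased genes (93.7% and 81.9%) and 51 of the 58 leaf-biased genes (87.9% and 91.1%). These are different samples of the same genotypes, but not all are from different plants. By the labels, 6 plants (4 PMT2, 2 PMT3) gave leaf and root samples of opposite treatments.

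Most marker genes lay on the side of their organ label. Of 12 leaf markers 9 were leaf-biased in all lines, beside 3.33% over all scored genes, and 1, NITAB097766, was root-biased. These 12 are the photosynthesis genes counted above, so this is the same result and not a further one. The summed level of the 12 was between 3163 and 4901 RPKM in leaves and between 162 and 188 RPKM in roots. Of 21 root markers 20 were scored in all lines and 19 were root-biased, beside 71.1% over all scored genes. Their sums were between 3.99 and 12.7 RPKM in leaves and between 174 and 487 RPKM in roots. The root markers include the PMT, A622 and BBL candidates, which the study chose in these same roots. The bias of those genes is not independent evidence for the labels. No marker was listed at 0 in any of the 6 groups. The exceptions among root markers were NITAB068133 and NITAB063696 (RSI-1), the latter with 0.665, 0.786 and 0.196 RPKM in roots. SCARECROW (NITAB040941), a regulator of the endodermis, had 3.47, 1.80 and 2.51 RPKM in roots and 0.194, 0.119 and 0.410 RPKM in leaves.

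Root libraries mapped less completely than leaf libraries. The listed libraries held between 16299684 and 517291516 reads in leaves and between 27586716 and 150334394 in roots. The mean share of reads mapped was 83.0% ± 2.02 (SD, n = 5) in roots and 93.0% ± 4.42 (n = 5) in leaves of PMT1, 84.3% ± 2.71 (n = 5) and 94.9% ± 2.12 (n = 4) in PMT2, and 82.4% ± 2.66 (n = 4) and 93.7% ± 3.02 (n = 5) in PMT3, with no overlap between organs (two-sided exact permutation test, adjusted p = 0.0159 in each line). Of the mapped reads, 88.4% ± 6.09 lay in gene models in roots and 98.6% ± 0.281 in leaves of PMT1, 85.3% ± 5.36 and 98.3% ± 0.557 in PMT2, and 92.4% ± 4.73 and 98.2% ± 0.989 in PMT3 (exact permutation test, adjusted p = 0.0159 in each line), with overlap between organs in PMT3 alone. In PMT3 the difference in gene models of −5.79 percentage points did not stay below an adjusted p of 0.05 (exact permutation test) when leaf library 1, 3, 4 or 5 was left out, where it was −5.64, −5.80, −5.57 and −5.73 and the adjusted p reached 0.0571. In PMT2 the difference in gene models was −13.0 percentage points between means and −11.73 between medians, for which the adjusted p was 0.111 (exact permutation test). RPKM is scaled by mapped reads, and the part of these shares in the ratios was not tested.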

How the data were processed

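RNA of leaves and roots was extracted with a Qiagen RNeasy kit, libraries were prepared with TruSeq Stranded Total RNA Gold, and paired reads of 150 bases were sequenced. For mapping to an updated tobacco genome the authors used CLC Genomics Workbench 11.0.1 from Qiagen, with version 2.16 of its RNA-Seq Analysis tool. They set similarity and length fraction to 0.95, allowed up to 10 hits per read and counted paired reads as 2. The deposited RPKM values are the authors' means over the libraries of a group, for 2075 genes that the authors had called in roots with the CLC tool for empirical analysis of gene expression, whose exact test is also part of edgeR (p of at most 0.05, fold of at least 2). A deposited table of libraries lists the count of reads, the percent that mapped and the share of those falling within gene models. Since counts by gene were not analysed here, the depth behind a single RPKM value is unknown.

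From these values log2((root + 0.1)/(leaf + 0.1)) was computed per line where root or leaf reached 1 RPKM. A bias was called at 2-fold, a strong bias at 10-fold, and a bias was shared where it had the same direction in all 3 lines. No test was run on RPKM values. The 2 mapping measures were compared between organs by two-sided exact permutation tests, adjusted by the Benjamini-Hochberg method over 6 tests. The libraries are listed by line, organ and treatment only, so that they could not be matched to plants, and these p-values measure the spread between listed libraries. By the sample titles, 10 plants (5 PMT1, 2 PMT2, 3 PMT3) gave both an untopped leaf and an untopped root sample. The tests treat the organs as independent and ignore this pairing. The scripts were tested on simulated data. Python 3.11.15, numpy 2.4.6, pandas 2.3.3 and matplotlib 3.10.9 were used.

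Genes named are the 35 candidates, the 10 highest and 10 lowest mean ratios among named genes with shared bias and at least 5 RPKM in the favoured organ of each line, up to 8 departures per line and up to 10 genes of opposite bias with at least 5 RPKM, up to 4 genes per list, and the marker genes. Others are stated to have been chosen after their values were seen. The members and the 27 lists, matched on the names in the table, were chosen with earlier results of these data known. No positions are given, since the reference gene table matched 0 of the 2075 identifiers. Alternatives were other added values, minimums, folds and limits for a departure, centring on each line's median, leaving out a line, medians in place of means and leaving out each library.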

Additional observations from a re-analysis of the deposited data

Results flagged for a closer look

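Among the 28 listed libraries, 5 of 18 combinations of group and measure held a value far from the rest of its group, judged by the gap to its nearest neighbour relative to the range, which chance alone gives in about 1 in 20 groups. These were a PMT2 leaf library with 91.71% of reads mapped, a PMT3 leaf library with 88.36%, a PMT3 root library with 86.34%, a PMT2 root library with 138184962 reads and a PMT3 leaf library with 517291516 reads. The expression means cannot be recomputed without them.

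The organ bias pointed to the root in 1 line and to the leaf in another for 5 genes with at least 5 RPKM in both lines, and these differences were not tested. The ratios of the lines were up to 4.84 log2 units apart in NITAB068620, 4.71 in NITAB086778, 4.09 in NITAB067928, 4.06 in NITAB099216 and 2.35 in NITAB043423. In topped plants the ratio of NITAB068620 was 1.32 in PMT1, 2.50 in PMT2 and 0.55 in PMT3, and that of NITAB086778 was −2.85, 0.72 and −0.10, so that neither gene kept its untopped pattern.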

How the results depend on the processing

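Adding 0.01 in place of 0.1 RPKM gave 9, 30 and 35 departures in PMT1, PMT2 and PMT3, and of the 29 departures 28 were kept. Adding 1 RPKM gave 0 departures in PMT1 and 1 in PMT3, 13 of the 29 being kept, and 124 genes with a shared 10-fold root bias. Centring on each line's median gave 594, 625 and 675 root-biased and 688, 681 and 570 leaf-biased genes in PMT1, PMT2 and PMT3, 468 and 451 with shared bias to root and leaf, and 39 and 79 at 10-fold. Under it the mean ratio turned to −1.25 in NITAB002823, −1.51 in NITAB005705, −0.63 in NITAB013732, −1.28 in NITAB060787 and −0.79 in NITAB085075. These changes follow from the shift of the reference. With no minimum RPKM there were 5, 27 and 24 departures. With a minimum of 5 RPKM, which tests fewer genes, there were 1, 9 and 0 departures, 850, 1030 and 648 root-biased genes, 566 with shared root bias and 281 at 10-fold. At a fold of 4 the shared leaf bias covered 34 genes. A limit of 1.5 log2 units gave 11, 32 and 57 departures, and a limit of 3 gave 1 in PMT1 and 2 in PMT3. Leaving out a line kept each shared count within 1.5 times its value. The other 52 of 85 alternative counts stayed within 1.5 times.

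With medians the difference in reads within gene models was −11.73 percentage points in PMT2 (exact permutation test, adjusted p = 0.111). When 1 library was left out, the differences in mapped reads were between −11.9 and −9.11 points in PMT1, −11.6 and −9.76 in PMT2 and −12.6 and −10.7 in PMT3, and those in gene models between −11.9 and −8.59, −14.9 and −11.5, and −7.42 and −3.80. No paired analysis was possible because the listed libraries carry no plant or replicate numbers and the expression values are group means. The unknown number of reads per gene limits every ratio of a gene near 1 RPKM.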
